A study of Homo sapiens with 12 samples.

Results

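The 42 genes described here are ATF4 itself, genes known as its targets, and 12 cytosolic aminoacyl-tRNA synthetases. They were chosen by name: every row of the deposited count table whose Ensembl identifier maps to one of the 42 symbols is a member. All 42 were found among 60710 rows, and all 42 were among the 16366 genes that passed the filter on low counts. The cells were SH-SY5Y, a human neuroblastoma line, cultured in plates of 6 wells, each holding 2 mL of medium. Every well received 10 µL of DMSO, and exposure lasted 5 h. The 4 groups of 3 libraries were DMSO alone (the control), HPPE at 5 µM, zinc protoporphyrin at 5 µM and tin protoporphyrin at 5 µM. The porphyrins differ from each other in the metal held by the protoporphyrin ring, and the labels do not spell out HPPE. Nothing in the labels says that the replicates came from separate cultures, so p-values measure the spread between these libraries.

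ATF4 is a transcription factor of the integrated stress response. In that response stress-activated kinases phosphorylate the initiation factor eIF2, translation of most mRNAs slows, and the ATF4 mRNA is translated more, so that ATF4 activity can rise with little change in its own mRNA. ATF4 raises genes for amino acid synthesis and uptake, for charging tRNA with amino acids, and for the stress factors DDIT3, TRIB3 and CHAC1. One of the kinases, EIF2AK1, is regulated by heme, whose ring the metal protoporphyrins share.

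Libraries of 1 group differed in depth and along a trend with transcript length. Total counts ran from 1337028 (zinc protoporphyrin replicate 1) to 9145399 (tin protoporphyrin replicate 2). Across genes, the Spearman correlation of transcript length with how far a library lay from the average of all libraries ran from -0.54 to 0.57. It was 0.52 in tin protoporphyrin replicate 2 against -0.54 and -0.18 in replicates 1 and 3, and -0.46 in DMSO replicate 3 against 0.44 and 0.19. HPPE replicates 2 and 3 had the lowest chi-square per gene of the 12 pairs within groups (1.11, against 1.49 to 17.3 in the others). That is close to counting error alone, and the labels do not say whether the HPPE replicates are independent cultures. The measure also grows with depth, so it does not rank likeness apart from depth. Where leaving out 1 of the libraries named here made or ended a call of a member, this is said below, though not always with the value. In bulk RNA, fewer cells expressing a gene and less RNA per cell cannot be told apart. Of 10 noradrenergic neuroblastoma markers 9 passed the filter on low counts; TH did not, with group means of 0.0375 to 0.0834 CPM (counts scaled to TMM-adjusted library size). Summed leukocyte, endothelial and epithelial markers did not exceed 2.12 CPM in any library.

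The sequence that C/EBP and ATF4 dimers bind was common in the promoters of these genes. It was searched as TGATGNAA on both strands (TTNCATCA on the other) in RefSeq windows from 250 bases before to 50 bases after each start, in the build GRCh38.p14. A window existed for 36 of the 42 members, and 14 of these (38.9%) held a match, against 4.46% of 27305 genes. Among synthetases it was 7 of 10 (70.0%), and among the other members 7 of 26 (26.9%). The form TGATGCAA alone occurred in 10 members, 6 of them synthetases, against 1.08% of all genes. The members were chosen by name as ATF4 targets and synthetases, so a share above that of all genes is no independent support. The genes beside them were not limited to those that passed the filter on low counts. The sites below are shown for the genes on which the results turn and for the 6 synthetases with a match within 50 bases of the start. Each is 30 bases, 5′ to 3′ on the strand of the gene, with the match in capitals.
ASNS: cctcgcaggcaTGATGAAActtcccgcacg
CHAC1: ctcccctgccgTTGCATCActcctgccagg
SLC1A5: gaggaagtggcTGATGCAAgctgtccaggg
NARS1: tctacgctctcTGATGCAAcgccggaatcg
MARS1: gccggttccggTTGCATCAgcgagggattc
IARS1: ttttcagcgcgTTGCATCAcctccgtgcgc
CARS1: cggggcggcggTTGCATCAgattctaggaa
TARS1: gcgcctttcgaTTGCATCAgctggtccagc
GARS1: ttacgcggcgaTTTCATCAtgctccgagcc
These lie at chr7:97872458-97872487 (minus strand) for ASNS, chr15:40953251-40953280 (plus) for CHAC1, chr19:46784893-46784922 (minus) for SLC1A5, chr18:57621804-57621833 (minus) for NARS1, chr12:57488053-57488082 (plus) for MARS1 and chr9:92293692-92293721 (minus) for IARS1. The last 3 lie at chr11:3057407-3057436 (minus) for CARS1, chr5:33440956-33440985 (plus) for TARS1 and chr7:30594834-30594863 (plus) for GARS1. The SLC1A5 match is in the window of 1 of its 3 starts, and those of ASNS, CARS1, TARS1 and GARS1 are each in the window of 1 of 2 starts.

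GDF15, the member with the largest change, had no match in its window. Its 250 bases before the start, at chr19:18385908-18386157 on the plus strand, are given in full, with no capitals because none of these letters match.
GDF15: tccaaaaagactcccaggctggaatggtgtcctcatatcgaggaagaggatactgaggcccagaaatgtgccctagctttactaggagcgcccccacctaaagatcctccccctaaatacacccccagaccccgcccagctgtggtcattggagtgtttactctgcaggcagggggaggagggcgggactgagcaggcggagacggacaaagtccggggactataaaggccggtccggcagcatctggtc
Few members were called either with or without a match. With HPPE, the median log2 fold change over the control was 0.04 in the 14 members with a match, of which 1 was called, and 0.11 in the 22 without, of which 1 was called. A match is a description of the letters and not a site shown to be bound.

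Few of the 42 genes were called against the control with any compound, and a gene not called is not shown to be unchanged. With HPPE, GDF15 and SLC1A5 were higher than in the control and none was lower, by the edgeR quasi-likelihood test at a Benjamini-Hochberg adjusted p under 0.05. That is 2 of 42 called higher where 2.57% of all tested genes were, and 0 lower where 1.47% were. Tin protoporphyrin raised 1 member, GDF15 (1.9% of all genes were called higher), and lowered 0 (0.379%). Zinc protoporphyrin gave 0 calls in either direction (1.84% and 0.415% of all genes). These shares of called members are near the background.

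DESeq2 called 2, 0 and 1 members with HPPE, zinc and tin protoporphyrin. At an unadjusted p under 0.05, edgeR gave 8, 4 and 5 (19.1%, 9.52% and 11.9% of the members), where 17.7%, 18.6% and 14.7% of all genes were under it. Every HPPE library was above every control library in 9 members (21.4%, against 11.9% of all genes) and below in 6 (14.3%, against 9.44%). Both HPPE shares lay above those of all genes. With zinc protoporphyrin the counts were 5 and 1 (11.9% and 2.38%, against 11.6% and 10.4% of all genes). With tin protoporphyrin they were 6 and 1 (14.3% and 2.38%, against 10.3% and 7.6%). The log2 fold change was positive in 30, 25 and 24 members with HPPE, zinc and tin protoporphyrin (71.4%, 59.5% and 57.1%). Over all genes the shares were 52.25%, 49.45% and 51.63%. The median log2 fold change over the 42 was 0.07 with HPPE, 0.06 with zinc protoporphyrin and 0.03 with tin protoporphyrin, beside 0.02, -0.00 and 0.01 over all genes. The 3 comparisons share the control libraries.

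**Figure D1:**
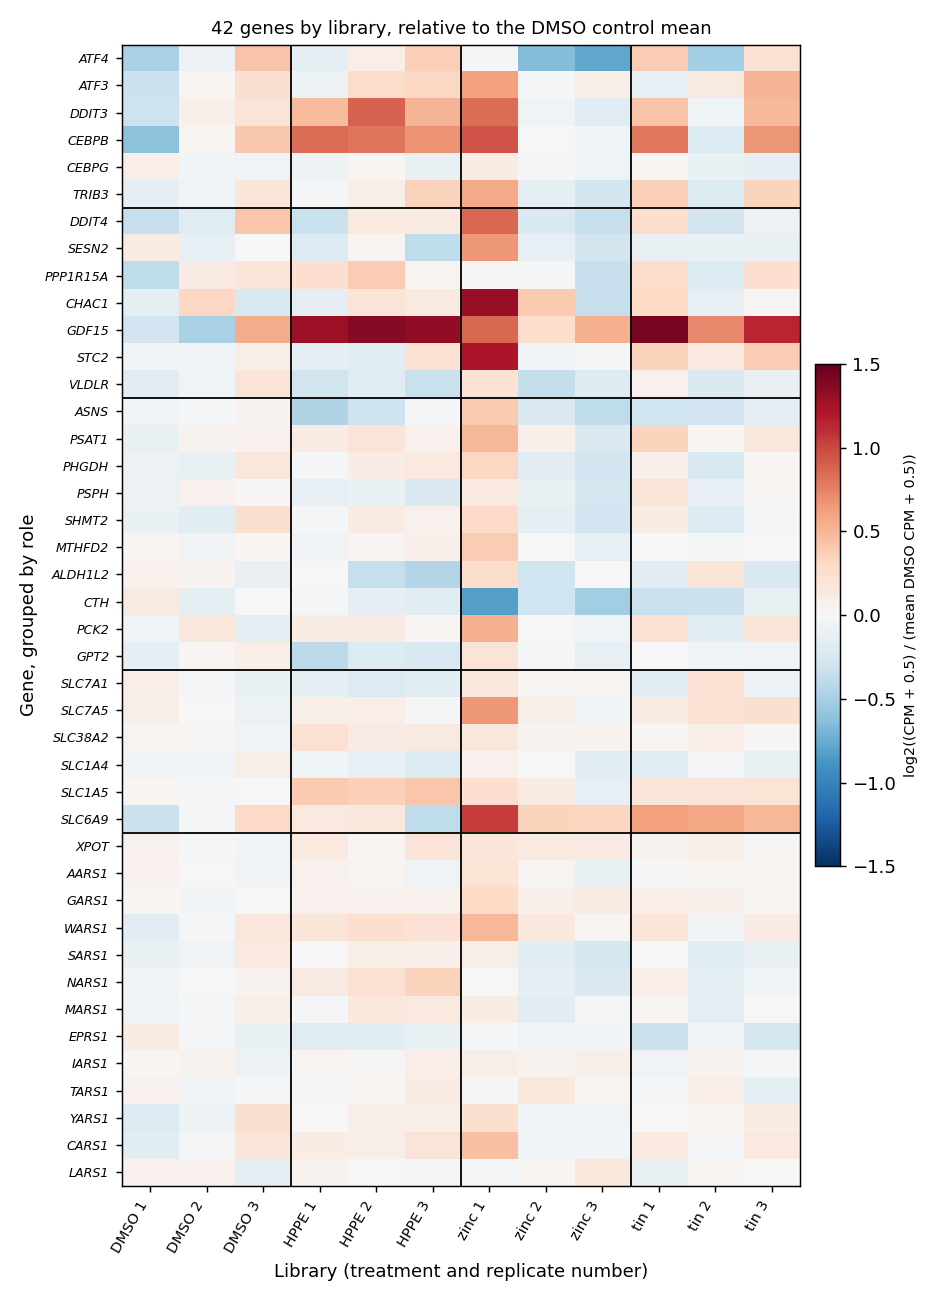
Each of the 42 genes (rows, grouped by role as regulators, stress effectors, enzymes, transporters, and XPOT with the synthetases) in each of the 12 libraries (columns), as log2 of CPM plus 0.5 over the DMSO mean plus 0.5. GDF15 is high in all HPPE and tin protoporphyrin libraries, and zinc protoporphyrin replicate 1 is high across many rows, with the synthetase rows pale throughout.

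GDF15 (ENSG00000130513.6), a secreted stress cytokine, was the member that changed most. It stood at 5.82, 5.02 and 10.9 CPM in the control libraries and at 18.3, 19.3 and 19.0 with HPPE. With tin protoporphyrin it was 20.3, 12.3 and 16.6 CPM, and with zinc protoporphyrin 13.6, 8.77 and 10.7. All HPPE and all tin protoporphyrin libraries lay above every control library, whereas the zinc protoporphyrin libraries overlapped the highest control.

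The means of GDF15 were 7.23 ± 3.16 CPM in the control (SD, n = 3), 18.9 ± 0.55 with HPPE, 11.0 ± 2.41 with zinc protoporphyrin and 16.4 ± 4.01 with tin protoporphyrin. The log2 fold change with HPPE was 1.63 ± 0.23 (SE; 95% interval 1.14 to 2.12), a 3.09-fold rise (edgeR adjusted p 0.000348). With tin protoporphyrin it was 1.42 ± 0.23 (0.94 to 1.91), a 2.68-fold rise (edgeR adjusted p 0.00177). With zinc protoporphyrin it was 0.75 ± 0.26 (0.20 to 1.29), which did not pass (edgeR adjusted p 0.134). GDF15 was called with zinc protoporphyrin in 3 of 20 alternatives, namely without the filter (adjusted p 0.0399), with length and GC content corrected (0.0258) and with the library axis, the main direction of the differences within groups, as a covariate (0.00458). The HPPE call held in all 21 alternatives run, and the tin protoporphyrin call in 19 of 20; the fit of the compared groups alone gave an adjusted p of 0.0509. The gene was counted thinly, at 17 to 44 reads in the control libraries and 18 in zinc protoporphyrin replicate 1.

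**Figure D2:**
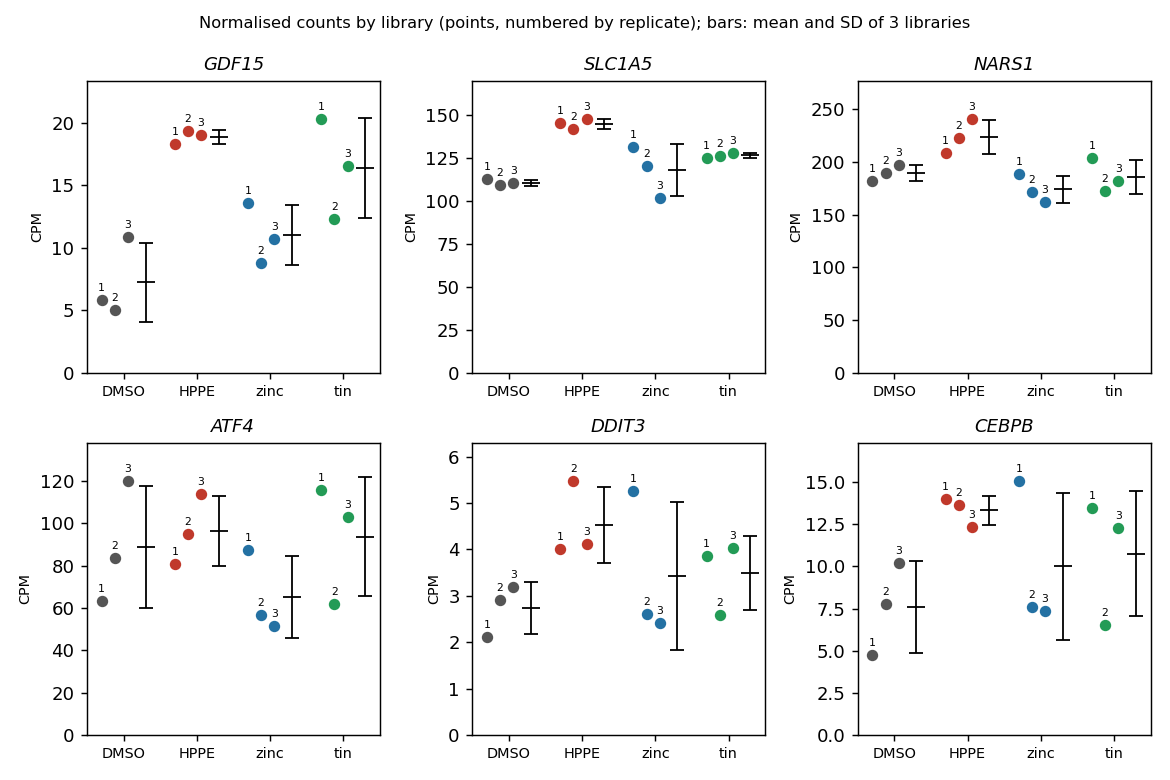
CPM (linear axis from 0) of 6 members in each library, as points numbered by replicate, with the mean and SD of each group of 3 as a bar beside them. GDF15 separates HPPE and tin protoporphyrin from the control, SLC1A5 separates HPPE from every other library, and ATF4, DDIT3 and CEBPB spread widely within the control, zinc and tin groups.

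The other stress effectors did not pass the test with any compound. They are DDIT4 and SESN2, which restrain the growth kinase complex mTORC1, PPP1R15A, the phosphatase subunit that reverses eIF2 phosphorylation, CHAC1, which breaks down glutathione, STC2, a secreted glycoprotein, and VLDLR, a lipoprotein receptor. CHAC1 (ENSG00000128965.13) stood at 4.10, 5.81 and 3.83 CPM in the control, 4.13, 5.36 and 5.07 with HPPE, 12.1, 6.15 and 3.49 with zinc protoporphyrin and 5.74, 4.16 and 4.73 with tin protoporphyrin. All groups overlapped, and the 12.1 CPM rests on 16 reads. The HPPE effect on CHAC1 was 0.00 ± 0.33 on the log2 scale (-0.69 to 0.70). The log2 fold changes of DDIT4, SESN2, PPP1R15A, STC2 and VLDLR lay between -0.21 and 0.32 with all 3 compounds.

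No regulator passed the test against the control. ATF4 (ENSG00000128272.16) stood at 63.2, 83.6 and 120.0 CPM in the control and 80.7, 94.9 and 113.7 with HPPE. It was 87.3, 56.5 and 51.5 CPM with zinc protoporphyrin and 116.0, 62.1 and 103.1 with tin protoporphyrin. The groups overlapped throughout, and the control alone spanned nearly the full range. The log2 fold change was 0.18 with HPPE (95% interval -0.30 to 0.67), -0.48 with zinc protoporphyrin (-0.998 to 0.04) and 0.16 with tin protoporphyrin (-0.32 to 0.64). In the control, zinc and tin groups the library highest in ATF4 was also the one with the lowest length correlation of its group (-0.46, 0.22 and -0.54). The part of that trend in the ATF4 values was not tested.

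CEBPB, which was singled out after its values were seen and is a bZIP partner of ATF4, and DDIT3 (CHOP), a bZIP factor of prolonged stress, were higher in every HPPE library than in any control library without passing the adjusted threshold. CEBPB (ENSG00000172216.6) stood at 4.76, 7.79 and 10.2 CPM in the control and 14.0, 13.6 and 12.4 with HPPE, a log2 fold change of 0.99 ± 0.29 (0.38 to 1.60; edgeR adjusted p 0.0648). It was called in 7 of 21 alternatives, among them the fits without DMSO replicate 3 and without tin protoporphyrin replicates 1 or 2. DDIT3 (ENSG00000175197.12) stood at 2.12, 2.90 and 3.19 CPM in the control and 4.0, 5.48 and 4.12 with HPPE, a log2 fold change of 0.83 ± 0.29 (0.22 to 1.45; edgeR adjusted p 0.127), and was called in 0 of 21 alternatives.

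With zinc protoporphyrin both genes were high in replicate 1 only, at 15.1 CPM against 7.59 and 7.34 for CEBPB and 5.27 against 2.62 and 2.41 for DDIT3. The values in that replicate rest on 20 reads for CEBPB and 7 for DDIT3. In DMSO replicate 3 the reads were 16 and 5, so counting error is large in both libraries. With tin protoporphyrin CEBPB was 13.5, 6.53 and 12.3 CPM and DDIT3 3.87, 2.59 and 4.04, with replicate 2 the lowest in both. Without tin protoporphyrin replicate 2, CEBPB was called higher with tin protoporphyrin than in the control, at 0.93 on the log2 scale (edgeR adjusted p 0.0287), against 0.65 (0.301) with it. That fit called 627 genes in all, against 373 with the library kept. In GENCODE 29, 27.2% of the exonic bases of DDIT3 overlap MARS1 on the opposite strand, and whether counting used strand is not given in the sources used here, so the DDIT3 values are uncertain. TRIB3 (ENSG00000101255.11), a pseudokinase that damps ATF4, stood at 17.6, 18.9 and 22.3 CPM in the control and 19.4, 20.9 and 25.0 with HPPE. It was 29.4, 17.8 and 16.1 CPM with zinc protoporphyrin and 25.3, 16.9 and 24.8 with tin protoporphyrin, so all groups overlapped. ATF3 and CEBPG, further bZIP factors, had log2 fold changes over the control between -0.08 and 0.30 with the 3 compounds.

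The 10 enzymes of amino acid and one-carbon metabolism gave no call against the control with any compound. ASNS (ENSG00000070669.17), which makes asparagine and is a standard ATF4 target, stood at 7.14, 7.26 and 7.66 CPM in the control, 5.25, 5.83 and 7.28 with HPPE, 9.79, 6.28 and 5.53 with zinc protoporphyrin and 5.86, 5.96 and 6.68 with tin protoporphyrin. Every tin protoporphyrin library was below every control library, and HPPE overlapped the control by 1 library. The log2 fold change was -0.30 with HPPE (-0.72 to 0.11), -0.20 with zinc protoporphyrin (-0.62 to 0.23) and -0.24 with tin protoporphyrin (-0.64 to 0.16). None of these intervals reaches a 2-fold rise. In GENCODE 29, 44.6% of the exonic bases of ASNS are shared with another annotated transcript on the same strand, so its counts are uncertain.

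The serine synthesis genes PHGDH, PSAT1 and PSPH, which supply carbon to the mitochondrial folate enzymes SHMT2, MTHFD2 and ALDH1L2, lay between -0.26 and 0.20 in log2 fold change over the control with all 3 compounds. GPT2, the mitochondrial alanine aminotransferase, and CTH were singled out after their values were seen. GPT2 was lower in every HPPE library (69.9, 79.7 and 78.8 CPM) than in any control library (84.0, 93.8 and 98.9). Its log2 fold change of -0.26 ± 0.09 did not pass (edgeR adjusted p 0.126; called in 2 of 21 alternatives). CTH, which makes cysteine, was lower in every zinc protoporphyrin library (3.01, 4.58 and 3.85 CPM) than in any control library (6.35, 5.15 and 5.74), at -0.49 ± 0.21 (edgeR adjusted p 0.22), and the lowest of these values rests on 4 reads. PCK2, which makes phosphoenolpyruvate in mitochondria, had log2 fold changes of 0.06 to 0.07.

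Among 6 amino acid transporters, SLC1A5 alone was called. SLC1A5 (ENSG00000105281.12), the glutamine carrier ASCT2, stood at 112.8, 109.4 and 110.4 CPM in the control and 145.4, 141.9 and 147.9 with HPPE. It was 131.8, 120.8 and 101.7 CPM with zinc protoporphyrin and 125.4, 126.6 and 128.2 with tin protoporphyrin. The HPPE libraries were above all other 9 libraries, and the tin protoporphyrin libraries were above all control libraries. With HPPE the log2 fold change was 0.39 ± 0.08 (0.21 to 0.56), a 1.31-fold rise (edgeR adjusted p 0.0129).

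The SLC1A5 call held in 16 of 21 alternatives. It was lost without DMSO replicate 1 or 2 or without any 1 of the HPPE libraries, where the log2 fold change was 0.38 to 0.39 and the adjusted p 0.0508 to 0.0876. With tin protoporphyrin the log2 fold change was 0.19 ± 0.08 (0.02 to 0.37; edgeR adjusted p 0.292) and with zinc protoporphyrin 0.06 ± 0.09 (-0.12 to 0.25). An antisense gene overlaps 23.4% of the exonic bases of SLC1A5.

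SLC6A9, the glycine transporter GLYT1, which was singled out after its values were seen, stood at 5.29, 6.60 and 8.29 CPM in the control and 10.6, 10.3 and 9.74 with tin protoporphyrin, without overlap. It was 14.3, 8.64 and 8.54 CPM with zinc protoporphyrin, also without overlap, and 7.5, 7.57 and 5.07 with HPPE. The log2 fold change was 0.71 ± 0.20 with tin (edgeR adjusted p 0.0797; called in 3 of 20 alternatives) and 0.57 ± 0.21 with zinc protoporphyrin (0.168). SLC38A2 (the sodium-coupled carrier SNAT2), SLC7A5 (the leucine carrier LAT1), SLC7A1 (the arginine carrier CAT1) and SLC1A4 (the serine and alanine carrier ASCT1) had log2 fold changes of -0.18 to 0.20 over the control. Scaled to transcript length, SLC38A2 was the most abundant of the 42 genes in the control, at 91.2 CPM per kb, and ATF3 the least, at 2.02.

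The aminoacyl-tRNA synthetases, which join each amino acid to its tRNA, gave no call against the control. The count was 0 of 12 with each compound, where 2.57%, 1.84% and 1.9% of all genes were called higher with HPPE, zinc and tin protoporphyrin. DESeq2 likewise called 0, and edgeR gave 2, 1 and 1 at an unadjusted p under 0.05, which is below the share of all genes under it with each compound. Their 95% intervals ran from -0.34 to 0.48 on the log2 scale with HPPE, -0.32 to 0.46 with zinc protoporphyrin and -0.39 to 0.37 with tin protoporphyrin, so a 2-fold change lies outside every interval. The log2 fold change was positive in 11 of 12 with HPPE, 8 with zinc and 5 with tin protoporphyrin, beside 52.25%, 49.45% and 51.63% of all genes. Their summed CPM was 2142 ± 11.5 in the control (SD, n = 3), 2213 ± 37.3 with HPPE, 2199 ± 95.7 with zinc and 2104 ± 21.6 with tin protoporphyrin.

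**Figure D3:**
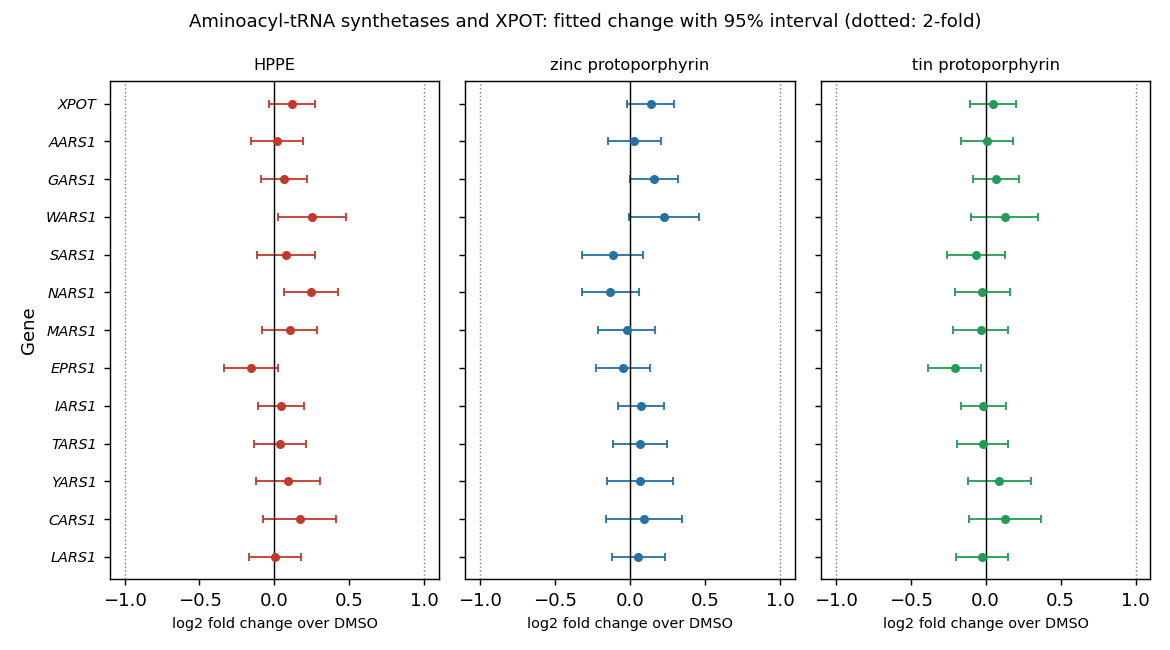
Fitted log2 fold change over the control (points) with its 95% interval (bars) for XPOT and the 12 synthetases, in 1 panel per compound; dotted lines mark 2-fold. Every interval stays inside the dotted lines, and the largest upper bound is 0.48, for WARS1 with HPPE.

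NARS1 (ENSG00000134440.12, asparagine) was the synthetase that differed between compounds. It stood at 181.5, 189.4 and 197.2 CPM in the control, 208.6, 222.6 and 240.6 with HPPE, 188.2, 171.3 and 162.3 with zinc and 203.5, 172.1 and 181.7 with tin protoporphyrin. Every HPPE library was above all other libraries, with a log2 fold change over the control of 0.24 ± 0.09 (0.06 to 0.43; edgeR adjusted p 0.14).

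WARS1 (tryptophan) stood at 71.3, 77.9 and 89.3 CPM in the control, 90.0, 94.6 and 92.8 with HPPE, 112.9, 89.0 and 81.4 with zinc and 91.1, 77.1 and 87.0 with tin protoporphyrin. GARS1 (glycine) stood at 192.7, 183.3 and 188.9 CPM in the control, 197.3, 196.4 and 196.6 with HPPE, 231.1, 198.1 and 207.5 with zinc and 201.6, 197.9 and 193.4 with tin protoporphyrin. GARS1 was thus above the control in every treated library, by a log2 fold change of 0.06 to 0.16, and WARS1 in every HPPE library. EPRS1 (glutamate and proline) went the other way, at 325.6, 295.4 and 281.4 CPM in the control, 266.0, 267.5 and 278.6 with HPPE, 295.9, 289.4 and 291.5 with zinc and 241.3, 292.8 and 250.3 with tin protoporphyrin. Its log2 fold change was -0.16 with HPPE and -0.21 with tin protoporphyrin (edgeR adjusted p 0.355 and 0.262). Without tin protoporphyrin replicate 2, EPRS1 was called lower with tin protoporphyrin, at -0.31 (edgeR adjusted p 0.0386). That fit called 627 genes in all, against 373 with the library kept.

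For the other synthetases the treated libraries overlapped the control in nearly every group. AARS1 (alanine) stood at 168.4, 161.0 and 155.1 CPM in the control, 169.5, 165.9 and 156.1 with HPPE, 186.7, 165.8 and 150.0 with zinc and 157.7, 165.6 and 166.3 with tin protoporphyrin. SARS1 (serine) stood at 91.2, 95.4 and 109.8 CPM in the control, 99.0, 104.7 and 104.2 with HPPE, 104.7, 88.3 and 82.8 with zinc and 99.2, 86.7 and 92.4 with tin protoporphyrin. Neither gene separated any group from the control. MARS1 (methionine) stood at 194.3, 199.3 and 216.3 CPM in the control, 200.5, 226.1 and 225.1 with HPPE, 219.9, 181.9 and 201.3 with zinc and 207.2, 183.7 and 202.9 with tin protoporphyrin. IARS1 (isoleucine) stood at 245.5, 249.6 and 227.2 CPM in the control, 247.0, 244.4 and 257.1 with HPPE, 256.0, 250.2 and 257.0 with zinc and 231.3, 249.7 and 236.8 with tin protoporphyrin. IARS1 was the exception: with zinc protoporphyrin all libraries lay just above the control, by a log2 fold change of 0.07.

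TARS1 (threonine) stood at 146.7, 134.9 and 138.5 CPM in the control, 138.3, 142.4 and 152.3 with HPPE, 138.5, 155.8 and 143.4 with zinc and 137.0, 150.3 and 127.0 with tin protoporphyrin. YARS1 (tyrosine) stood at 87.2, 95.2 and 119.3 CPM in the control, 100.0, 105.9 and 107.3 with HPPE, 119.0, 98.0 and 97.3 with zinc and 101.4, 102.6 and 108.3 with tin protoporphyrin. In YARS1, as in CARS1, the control replicate 3 was the highest control library. CARS1 (cysteine) stood at 52.6, 57.8 and 67.0 CPM in the control, 64.2, 63.0 and 67.8 with HPPE, 81.3, 56.7 and 57.3 with zinc and 65.3, 58.0 and 65.7 with tin protoporphyrin. LARS1 (leucine) stood at 398.2, 395.8 and 345.8 CPM in the control, 394.9, 379.7 and 371.4 with HPPE, 374.2, 387.7 and 424.2 with zinc and 355.6, 392.4 and 379.0 with tin protoporphyrin. All 4 of these genes overlapped the control in every group. XPOT, which exports tRNA from the nucleus, had log2 fold changes of 0.12, 0.14 and 0.05 with HPPE, zinc and tin protoporphyrin.

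Between compounds, HPPE and zinc protoporphyrin differed in 3 members, all higher with HPPE. These were GDF15, SLC1A5 and NARS1, where 6.44% of all genes were called higher and 6.26% lower, so the 3 of 42 are near the background. DESeq2 called the same number, and edgeR gave 9 at an unadjusted p under 0.05 (21.4%, against 32.2% of all genes). Every HPPE library was above every zinc protoporphyrin library in 5 members and below in 5, against 19% and 17.7% of all genes.

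The log2 difference between HPPE and zinc protoporphyrin was 0.88 ± 0.21 for GDF15 (0.44 to 1.33; edgeR adjusted p 0.0179), 0.32 ± 0.08 for SLC1A5 (0.14 to 0.50; 0.0243) and 0.37 ± 0.09 for NARS1 (0.19 to 0.56; 0.0164). All 3 calls were lost without HPPE replicate 2, without HPPE replicate 3, without zinc protoporphyrin replicate 3 and with HPPE replicates 2 and 3 summed as 1 library. GDF15 was lost also without zinc protoporphyrin replicate 2. Without zinc protoporphyrin replicate 3 the differences were 0.94, 0.21 and 0.32, with adjusted p values of 0.105, 0.199 and 0.123. With the replicate number as a block, SLC1A5 was not called (adjusted p 0.058), and neither was it after correction for length and GC content (0.197 on the log2 scale, adjusted p 0.0762).

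ATF4 differed between HPPE and zinc protoporphyrin by 0.66 ± 0.24 (0.16 to 1.17), which did not pass (edgeR adjusted p 0.0707; called in 2 of 21 alternatives). GPT2 had a log2 difference between HPPE and zinc protoporphyrin of -0.27 ± 0.09, which did not pass either (edgeR adjusted p 0.0599; called in 6 of 21 alternatives, among them the fit without DMSO replicate 3, at an adjusted p of 0.0486). Without tin protoporphyrin replicate 2, which belongs to neither group, 4 more members were called between HPPE and zinc protoporphyrin. CEBPB (0.71) and PPP1R15A (0.41) were then higher with HPPE, and GPT2 (-0.27) and SLC7A1 (-0.25) lower, at edgeR adjusted p values of 0.0219 to 0.0490. Over all genes, 2078 were called between HPPE and zinc protoporphyrin with every library kept. In the comparisons with the control, leaving out that library raised the calls over all genes, from 662 to 1106 with HPPE and from 369 to 750 with zinc protoporphyrin. Whether the 4 added calls are particular to these genes was not tested.

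HPPE and tin protoporphyrin differed in 0 members (0.745% and 0.709% of all genes were called higher and lower), with 0 by DESeq2 and 4 at an unadjusted p under 0.05 in edgeR (13.1% of all genes were under it). HPPE was above tin protoporphyrin without overlap in 3 members, SLC38A2, SLC1A5 and NARS1, and below in 3, GPT2, SLC7A5 and SLC6A9 (9.81% and 10.1% of all genes). For GDF15 the difference was 0.21 on the log2 scale with an interval of -0.18 to 0.59, for SLC1A5 0.19 (0.02 to 0.36) and for NARS1 0.27 (0.09 to 0.45).

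Zinc and tin protoporphyrin, which differ in the metal, also differed in 0 members (0.00611% and 0% of all genes), with 0 by DESeq2 and 2 at an unadjusted p under 0.05 in edgeR (13.3% of all genes were under it). These were GDF15, at -0.68 ± 0.21 for zinc against tin protoporphyrin (-1.12 to -0.24), and ATF4, at -0.64 ± 0.23 (-1.13 to -0.14), both with an edgeR adjusted p of 0.353. Both intervals leave out 0, and both allow a difference of more than 2-fold. Without tin protoporphyrin replicate 2 both were called lower with zinc protoporphyrin, GDF15 at -0.86 and ATF4 at -0.88 with edgeR adjusted p values of 0.0192 and 0.0452. That fit called 1453 genes in all, against 1 with the library kept, so these calls are not shown to be particular to GDF15 and ATF4. Every zinc protoporphyrin library was above every tin protoporphyrin library in 2 members, XPOT and IARS1, and below in 0 (6.56% and 6.38% of all genes). For the 12 synthetases the intervals of the zinc-to-tin difference ran from -0.29 to 0.34.

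The widest spread among these genes lay within the zinc protoporphyrin group. Replicate 1 was the highest of all 12 libraries in 23 of the 42 members (54.8%), against 13.0% of all tested genes. Among members at 10 CPM or more on average it was 19 of 36, against 9.51% of such genes. It exceeded both other zinc protoporphyrin libraries in 38 of 42. The median log2 ratio of replicate 1 to the mean of the other 2 was 0.41 over the members, 0.19 over the synthetases and 0.51 over the other members, beside -0.02 over all genes.

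Examples chosen after their values were seen are STC2 at 39.9 CPM (53 reads) against 16.2 and 16.4, DDIT4 at 49.7 against 23.2 and 21.2, SESN2 at 40.7 against 23.6 and 21.2, and SLC7A5 at 220.6 (293 reads) against 149.6 and 136.5. In the other direction, CTH was lowest in replicate 1, at 3.01 CPM. Replicate 1 was the shallowest library of the series, and what sets it apart was not tested. With it left out, the median over the 42 for zinc protoporphyrin against the control changed sign, from 0.06 to -0.06, and 13 rather than 25 members were positive. Without it the HPPE-to-zinc median was 0.08 in place of 0.00, with 28 members positive in place of 21. No member was called for zinc protoporphyrin against the control with or without it, and the log2 fold change of GDF15 without it was 0.68 (edgeR adjusted p 0.196).

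**Figure D4:**
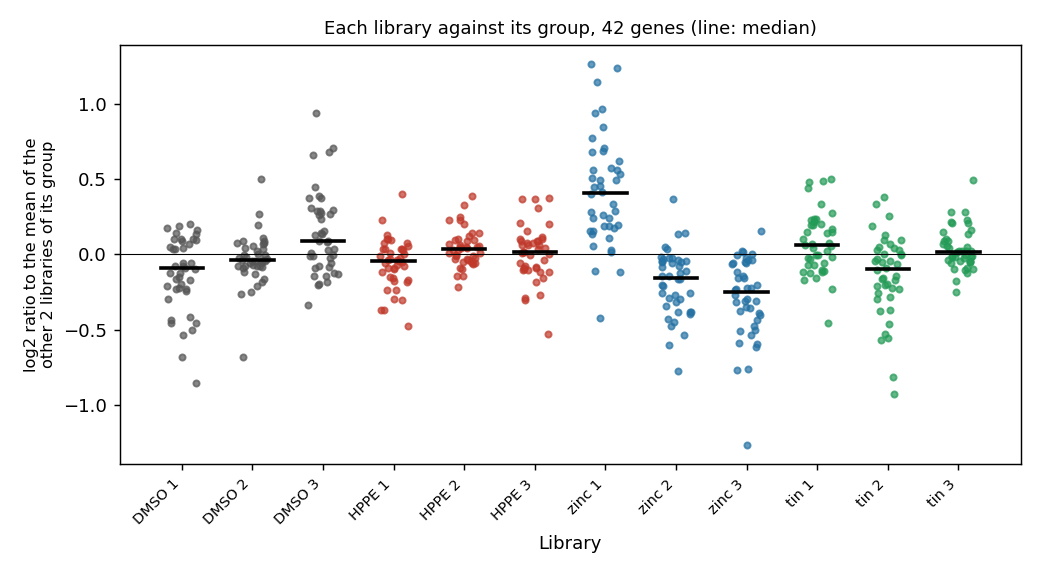
For each library, the log2 ratio of its CPM to the mean of the other 2 libraries of its group (pseudocount 0.5), with 1 point per member and a line at the median. Zinc protoporphyrin replicate 1 has a median of 0.41, and the medians of the other 11 libraries lie between -0.25 and 0.09.

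Genes upstream of ATF4 were read from a list of 17 eIF2 kinases, eIF2 and eIF2B subunits and their regulators. EIF2AK1 (ENSG00000086232.13), the heme-regulated kinase, was the 1 called gene of this list with HPPE, and it was lower (1 of 17, where 1.47% of all genes were called lower). It stood at 364.1, 355.1 and 375.2 CPM in the control and 291.1, 287.7 and 285.6 with HPPE. With zinc protoporphyrin it was 281.6, 325.5 and 305.2 CPM, and with tin protoporphyrin 320.6, 321.4 and 308.8. Every treated library, whatever the compound, was below every control library. Of the 17 genes, 5 lay above every control library with HPPE (29.4%, against 11.9% of all genes) and 2 below (11.8%, against 9.44%). At an unadjusted p under 0.05, edgeR gave 5 of the 17 with HPPE (29.4%, against 17.7% of all genes).

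For EIF2AK1 the log2 fold change was -0.34 ± 0.07 with HPPE (-0.50 to -0.18; edgeR adjusted p 0.0141), -0.25 ± 0.08 with zinc protoporphyrin (-0.41 to -0.09; 0.0848) and -0.20 ± 0.07 with tin protoporphyrin (-0.36 to -0.04; 0.201). The HPPE call held in 15 of 21 alternatives. It was lost without DMSO replicate 1 or 2, without any 1 HPPE library and with HPPE replicates 2 and 3 summed, at adjusted p values of 0.0508 to 0.0805. With zinc and with tin protoporphyrin 0 genes of the list were called, and DESeq2 likewise called 0. At an unadjusted p under 0.05, edgeR gave 1 each (5.88%, against 18.6% and 14.7% of all genes). Between HPPE and zinc protoporphyrin EIF2B1, a subunit of the eIF2 exchange factor, was higher by 0.39 ± 0.12 (edgeR adjusted p 0.0441; called in 9 of 21 alternatives), and DELE1, which relays mitochondrial stress to EIF2AK1, by 0.27 ± 0.07 (0.0295; 12 of 21). These are 2 of 17, where 6.44% of all genes were called higher, and DESeq2 called 0 of the list there.

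EIF2B1 stood at 65.0, 74.7 and 78.5 CPM in the control, 82.2, 87.0 and 88.0 with HPPE, 64.8, 69.6 and 61.0 with zinc and 89.8, 60.5 and 74.9 with tin protoporphyrin. DELE1 stood at 80.6, 89.2 and 81.7 CPM in the control, 97.3, 96.8 and 94.99 with HPPE, 78.3, 78.0 and 82.6 with zinc and 85.0, 80.9 and 86.4 with tin protoporphyrin. In both genes the HPPE libraries lay above every control and every zinc protoporphyrin library.

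Of 16 further genes known as ATF4 targets, 13 were tested; NUPR1, FGF21 and SLC7A3 did not pass the filter on low counts. SLC7A11 (ENSG00000151012.13), the cystine transporter, which NRF2 also regulates, was the 1 gene called against the control (1 of 13 with HPPE, where 2.57% of all genes were called higher). It stood at 9.92, 6.34 and 8.29 CPM in the control and 100.0, 87.4 and 91.8 with HPPE, an 11.4-fold rise (log2 3.51 ± 0.27; edgeR adjusted p 4.01e-07). With zinc protoporphyrin it was 41.4, 12.8 and 12.8 CPM, with replicate 1 again far above the others, and with tin protoporphyrin 12.4, 13.6 and 10.7. SLC7A11 was also higher with HPPE than with zinc protoporphyrin, by 2.502 ± 0.25 on the log2 scale (edgeR adjusted p 1.61e-05), and than with tin protoporphyrin, by 2.92 ± 0.23 (1.34e-06). Between HPPE and zinc protoporphyrin 3 of the 13 genes were called higher, SLC7A11, SLC3A2 and ATF5, where 6.44% of all genes were. Between HPPE and tin protoporphyrin SLC7A11 was the 1 gene called (0.745% of all genes were called higher). Of the 13 genes, 5 lay above every control library with HPPE (38.5%, against 11.9% of all genes) and 1 below (7.69%, against 9.44%). At an unadjusted p under 0.05, edgeR gave 4 of the 13 with HPPE against the control (30.8%, against 17.7% of all genes). Between HPPE and zinc protoporphyrin it gave 6 (46.15%, against 32.2%).

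SLC3A2, the partner chain of SLC7A11, was higher with HPPE than with zinc protoporphyrin by 0.64 ± 0.15 (edgeR adjusted p 0.0158; called in 16 of 21 alternatives). It stood at 52.0, 57.1 and 70.8 CPM in the control, 76.9, 88.9 and 83.9 with HPPE, 78.3, 49.9 and 46.2 with zinc and 66.3, 54.1 and 65.8 with tin protoporphyrin. Zinc protoporphyrin replicate 1 overlapped the HPPE libraries.

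ATF5, a bZIP factor whose mRNA is translated under the same control as that of ATF4, separated HPPE from zinc protoporphyrin. It stood at 31.0, 30.2 and 27.9 CPM with HPPE, 16.6, 17.0 and 15.5 with zinc protoporphyrin, 26.3, 17.8 and 18.8 with tin protoporphyrin and 23.0, 23.6 and 21.7 in the control. HPPE lay above and zinc protoporphyrin below every control library. The HPPE-to-zinc difference was 0.88 ± 0.15 on the log2 scale (edgeR adjusted p 0.00238; called in 21 of 21 alternatives). Against the control ATF5 did not pass, at 0.38 ± 0.14 with HPPE (0.157) and -0.50 ± 0.15 with zinc protoporphyrin (0.0935). In zinc protoporphyrin replicate 1 it was not raised over replicates 2 and 3.

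Among 11 other cytosolic synthetases and scaffold proteins, HARS1 (histidine) was the 1 gene called against the control, higher with HPPE by 0.30 ± 0.07 (edgeR adjusted p 0.0244; called in 12 of 21 alternatives). That is 1 of 11, where 2.57% of all genes were called higher. HARS1 stood at 108.9, 105.7 and 118.0 CPM in the control, 135.6, 140.5 and 130.5 with HPPE, 116.7, 128.9 and 123.9 with zinc and 126.2, 126.0 and 129.1 with tin protoporphyrin. The HPPE libraries lay above all others. VARS1 (valine) was lower with HPPE than with zinc protoporphyrin by a log2 difference of -0.31 ± 0.07 (edgeR adjusted p 0.0146; called in 17 of 21 alternatives; 1 of 11, where 6.26% of all genes were called lower). It stood at 199.1, 187.0 and 192.7 CPM in the control, 176.7, 178.7 and 174.5 with HPPE, 231.1, 211.6 and 218.0 with zinc and 195.6, 191.4 and 186.6 with tin protoporphyrin. HPPE lay below and zinc protoporphyrin above every control library. The 17 mitochondrial synthetases gave 0 calls in all 6 comparisons by edgeR and 0 by DESeq2, where 0% to 6.44% of all genes were called in either direction. They had 0 to 4 genes at an unadjusted p under 0.05 in edgeR, where 13.1% to 32.2% of all genes were under it. The 4 were with zinc protoporphyrin against the control (23.5%, against 18.6% of all genes).

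Some markers of another cell state differed from the control. The summed level of 6 mesenchymal or fibroblast markers was 183.1 to 189.2 CPM in the control libraries, 235.6 to 239.7 with HPPE, 216.9 to 230.4 with zinc and 227.9 to 241.6 with tin protoporphyrin; PRRX1 was at or near 0 throughout. Of the 5 tested, 1 was called higher with HPPE (PDGFRB), 2 with zinc protoporphyrin (COL1A2 and DCN) and 3 with tin protoporphyrin (all of these), and none lower. Over all genes, 2.57%, 1.84% and 1.9% were called higher with HPPE, zinc and tin protoporphyrin. PDGFRB made up most of the sum, at means of 113.6 CPM in the control and 159.1 with HPPE, while COL1A1 was at 51.3 and 50.1 and COL1A2 at 3.53 and 3.57. Summed noradrenergic markers were 5258 to 5508 CPM in the control, 4966 to 4985 with HPPE, 4599 to 5098 with zinc and 4941 to 5110 with tin protoporphyrin. Of these markers 8 of 9 tested had a negative log2 fold change with each compound. Over all genes it was positive in 52.25%, 49.45% and 51.63% with HPPE, zinc and tin protoporphyrin. The part of these markers in the changes of GDF15, SLC1A5 and EIF2AK1 was not tested.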

How the data were processed

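RNA was measured in 12 libraries, 3 for each of 4 groups, grouped by the labels. The deposited table holds whole-number counts per gene, not normalized. Reads were trimmed with fastp 0.21.1, aligned with STAR 2.7.7a to GRCh38 and counted with featureCounts, per the submitters' processing notes; the annotation, the use of strand and the treatment of multiply mapped reads are not given in the sources used here. No column fell outside the 12 samples (0 columns), and 0 rows named no gene. Members were found by Ensembl identifier through a table of gene names (60481 of 60710 rows matched a symbol).

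From the deposited counts, CPM was computed on TMM-scaled library sizes. All 16366 genes passing filterByExpr (99.6% of counts) were tested with edgeR 4.0.16 in R 4.3.3 (glmQLFit robust, glmQLFTest, two-sided) in 1 model of 12 libraries, with Benjamini-Hochberg adjustment over all genes in each of 6 comparisons and calls at an adjusted p under 0.05. Errors are SE from the F statistic, intervals are 95%, and errors of CPM are SD over 3 libraries. A count of 3 equals, before TMM scaling, 0.328 CPM in the deepest library and 2.24 in the shallowest, for counting error only. The procedure was run on simulated counts drawn independently for each library. That simulation held no library axis and no length trend, so it does not cover those conditions.

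Alternatives were no filter, RLE size factors, unscaled sizes, DESeq2 1.42.0, the compared groups only, the replicate number as a block, a library axis (first principal component of the deviations from group means) as covariate, offsets for length and GC content (GENCODE 29, longest transcript, 98.9% of genes), HPPE replicates 2 and 3 summed, and each library left out. The members and lists were chosen with earlier results of these data known. Values in every library are given for members called in any comparison, for ATF4, DDIT3, TRIB3, CHAC1 and ASNS, and for the synthetases, and from the other lists for called genes and EIF2AK1; CEBPB, SLC6A9, GPT2, CTH, STC2, DDIT4, SESN2 and SLC7A5 were chosen after their values were seen. A result on a cell state marker is not reported here.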

Additional observations from a re-analysis of the deposited data

How the results depend on the processing

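No result changed direction while called. Limits are depth (zinc protoporphyrin replicate 1 and DMSO replicate 3), the length trend and 3 libraries a group; the causes of the shifts below were not tested, except that the library axis comes from the same residuals and lowers the spread by construction. Counts of members called, higher then lower, were these. HPPE against DMSO gave 2 and 0, with the library axis 6 and 3, with length and GC corrected 4 and 1, and without single libraries 1 to 3 and 0. Zinc protoporphyrin against DMSO gave 0 and 0, with no filter 1 higher, with the library axis 4 and 2, and with length and GC corrected 2 higher. Tin protoporphyrin against DMSO gave 1 and 0, with no filter 2 higher, with compared groups only 0, with the library axis 3 and 1, with length and GC corrected 2 higher, and without single libraries 1 to 2 and 0 to 1. HPPE against zinc protoporphyrin gave 3 and 0, with no filter 5 higher, with RLE 1 lower, with compared groups only 6 and 2, with the library axis 10 and 2, with length and GC corrected 2 lower, with HPPE replicates summed 0, and without single libraries 0 to 5 and 0 to 2. HPPE against tin protoporphyrin gave 0 and 0, and with the library axis 3 and 3. Zinc against tin protoporphyrin gave 0 and 0, with no filter 1 lower, with the library axis 1 and 2, and without single libraries 0 to 2 lower.

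Of all genes, HPPE against DMSO called 662, with the library axis 2672, with length and GC corrected 1220, with HPPE replicates summed 384, and without single libraries 284 to 1106. Zinc protoporphyrin against DMSO called 369, with no filter 904, with the axis 4158, with length and GC corrected 894, and 72 to 750. Tin protoporphyrin against DMSO called 373, with compared groups only 131, with the axis 2207, with length and GC corrected 786, and 146 to 627. HPPE against zinc protoporphyrin called 2078, with no filter 3186, with compared groups only 4267, with the axis 5698, with HPPE replicates summed 458, and 173 to 3517. HPPE against tin protoporphyrin called 238, with no filter 420, with compared groups only 144, with the axis 2594, with length and GC corrected 498, with HPPE replicates summed 119, and 91 to 342. Zinc against tin protoporphyrin called 1, with no filter 270, with DESeq2 2, with the axis 2350, with length and GC corrected 20, and 1 to 1453, the last without tin protoporphyrin replicate 2.

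The replicate numbers did not pair the libraries: correlations of deviations ran from -0.68 to 0.52 for the same number and -0.66 to 0.70 for others, and 3 of 12 libraries correlated best with their own number. With the replicate block, all genes called were 412 for HPPE, 133 for zinc and 209 for tin protoporphyrin against DMSO, 758 for HPPE against zinc and 139 for HPPE against tin protoporphyrin. The block removed the call of SLC1A5 for HPPE against zinc protoporphyrin and of no other member.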
